A study of Mus musculus with 8 samples.

Results

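The genes described here are a set of 10 that mark the response of cells to oxidative stress and to metal ions. Hmox1, Nqo1, Gclc, Gclm, Gsr, Txnrd1, Srxn1 and Osgin1 are targets of the transcription factor NRF2, and Mt1 and Mt2 encode the 2 widely expressed metallothioneins. They were chosen by name, with earlier results of these data known, so their counts beside those of all genes are descriptions. Each gene was represented by the probe set that carries its symbol alone in the platform annotation and has the highest mean signal over the 8 arrays. The 10 genes had 19 such probe sets, and all 10 representatives were among the 12529 genes that passed the filter on low signals.

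The arrays measured mouse cells of C57BL/6 background in a secondary OSKM system, in which the reprogramming factors Oct4, Sox2, Klf4 and Myc are switched on by doxycycline. Every group carried the OSKM system and received doxycycline, which the labels write as 2 mg/ml, in embryonic stem cell medium with 15% FBS and 100 units/ml of leukemia inhibitory factor. At day 3 and at day 6 one group had received CSA, written as 10 mM, and one group the solvent DMSO as control, which makes 4 groups. CSA is cyclosporin A, an inhibitor of the phosphatase calcineurin, which activates the NFAT transcription factors. Each group had 2 arrays, which the series text calls independent biological repeats. The labels do not state the starting cell type, the driver of the factors, the dose of DMSO or whether the repeats shared an animal, a culture or a day.

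NRF2, encoded by Nfe2l2, is kept low by KEAP1, which hands it to a ubiquitin ligase. Oxidants and electrophiles release it, and with small MAF partners it binds antioxidant response elements in the promoters of genes for glutathione synthesis, thioredoxin and quinone reduction and heme breakdown, where BACH1 competes with it. Metallothioneins are small cysteine-rich proteins that hold zinc and copper. Their genes answer to zinc through MTF1, which binds metal response elements, and also to oxidants and glucocorticoids.

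Signals are given as log2 values, so a difference of 1 is a doubling. Each difference is given with the standard error of the limma fit, over 2 arrays per group, and with a p adjusted by the Benjamini-Hochberg method over all probe sets tested. A gene counts as past the threshold when its adjusted p is under 0.05. The median log2 signal of an array ran from 6.15 to 6.53, and arrays of a group correlated at 0.968 to 0.974. With 2 arrays per group their number limits the precision.

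Some of the 10 genes were higher under CSA than in DMSO at day 3, and more passed the test at day 6. At day 3, 3 of the 10 genes were past the threshold and higher (Srxn1, Mt1 and Mt2) and 0 were lower, where 7.14% of all genes tested were higher and 5.52% lower. The limma test at an unadjusted p under 0.05 took 6 of the 10 genes at day 3, all of them higher. It took 6373 of the 27022 probe sets tested, in either direction. The values of Txnrd1, Gsr and Osgin1 were below 0 without passing. The day 3 count of 3 was 1 without CSA replicate 2 of that day, 1 with probe sets averaged within genes and 0 without the intensity trend in limma's prior variance. At day 6, 7 of the 10 were higher (Hmox1, Nqo1, Gclm, Txnrd1, Srxn1, Mt1 and Mt2) and 0 were lower, against 6.41% higher and 6.11% lower among all genes. At an unadjusted p under 0.05 the day 6 count was 8, the eighth being Osgin1, which was lower. Of the 27022 probe sets tested, 6391 were under it in either direction. The median log2 difference of the 10 genes was 0.36 at day 3 and 0.62 at day 6, beside -0.0042 and -0.012 over all genes. Both CSA arrays lay above both DMSO arrays for 7 of the 10 genes at day 3, where 28.2% of all genes did so, and for 8 at day 6, where 27.8% did. The same 7 genes were not overlapping at both days, and Txnrd1 joined them at day 6.

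**Figure D1:**
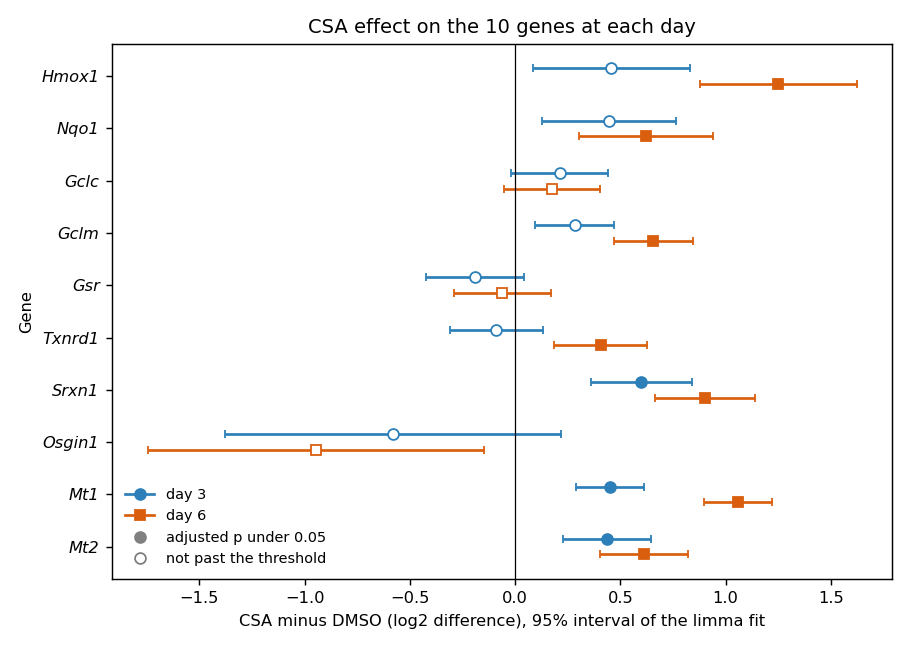
CSA minus DMSO on the log2 scale for each of the 10 genes at day 3 (blue circles) and day 6 (orange squares), with the 95% interval of the limma fit over 2 arrays per group; filled symbols have an adjusted p under 0.05. At day 6, 7 genes are filled and lie to the right of 0, up to Hmox1 at 1.25, while Osgin1 at -0.95 lies to the left and is open.

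Marker genes of other cell types also differed between these arrays. The summed linear signal of 7 keratinocyte markers, 5 of them tested, was 4616 to 4676 in DMSO and 6726 to 7181 in CSA at day 3, and 3801 to 4005 in DMSO and 5344 to 5457 in CSA at day 6. Of these markers Krt14 (0.63 ± 0.08, adjusted p = 0.000671) and Krt1 (1.46 ± 0.27, adjusted p = 0.00599) were higher at day 3, and Krt1 (1.62 ± 0.27, adjusted p = 0.00316) and Ivl (2.37 ± 0.41, adjusted p = 0.00422) at day 6. The sum of 9 macrophage markers, whose cells are rich in Hmox1, was 598 in both DMSO arrays and 570 to 591 in CSA at day 3, and 696 to 707 in DMSO and 789 to 859 in CSA at day 6. None of its 5 tested members passed the limma test at either day, and Ptprc and Aif1, which define leukocytes and macrophages, were below the filter. The sum of 6 endothelial markers, 3 of them tested, was 1802 to 1923 in DMSO and 1779 to 1932 in CSA at day 3. At day 6 it was 1893 to 1980 in DMSO and 2519 to 2634 in CSA. Tek was higher by 0.46 (adjusted p = 0.0142), while Esam differed by 0.02 (adjusted p = 0.962). Kdr, with scattered DMSO signals of 1.73 and 5.81, differed by 3.00 without passing (adjusted p = 0.118). Pecam1, Cdh5 and Emcn were below the filter. No marker value of these lists was exactly 0 on any array. Other marker sums were lower in CSA at day 6. The sum of 5 early reprogramming markers was 6941 to 7166 in DMSO and 8128 to 8686 in CSA at day 3, but 11898 to 12196 in DMSO and 8357 to 8709 in CSA at day 6. Most of this sum is the signal of Cdh1 alone, at 12.52 to 13.17 on the log2 scale. Alpl (1.92, adjusted p = 0.00217) and Cdh1 (0.29, adjusted p = 0.0192) were higher at day 3. Epcam had a value of -0.37 that day (adjusted p = 0.137), Fut4 was below the filter, and the median of the 4 tested markers was -0.02. At day 6 Cdh1 (-0.50, adjusted p = 0.000879) and Epcam (-0.69, adjusted p = 0.0108) were lower. The sum of 9 fibroblast markers was 38407 to 41821 in DMSO and 36072 to 36907 in CSA at day 3, and 42534 to 43652 in DMSO and 38131 to 38233 in CSA at day 6, with 1 marker higher and 2 lower at day 3 and 0 higher and 2 lower at day 6. The sum of 8 pluripotency markers was 1823 to 2263 in DMSO and 1161 to 1303 in CSA at day 6. Pou5f1 was lower (-1.07, adjusted p = 0.00435), while Nanog, Sox2 and Zfp42 were below the filter. Pou5f1 encodes Oct4, which doxycycline switches on in every group. Whether its probe set reads the switched-on factor, the cells' own gene or both was not tested. The part of these cells or states in the results for the 10 genes was not tested. In RNA from a whole culture, fewer cells of a type and less RNA per cell cannot be told apart.

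Hmox1, which encodes the inducible heme oxygenase that splits heme into biliverdin, iron and carbon monoxide, had the largest CSA difference of the 10 genes at day 6. Its log2 signals were 8.40 and 8.76 in DMSO and 8.88 and 9.19 in CSA at day 3. At day 6 they were 8.59 and 8.38 in DMSO and 9.62 and 9.85 in CSA. Both CSA arrays of day 6 stood above the other 6 arrays, and the 4 DMSO arrays of the 2 days overlapped. The day 6 difference was 1.25 ± 0.17, a 2.38-fold higher signal (adjusted p = 0.000995), and it stayed past the threshold in each alternative run. At day 3 the difference was 0.46 ± 0.17 (adjusted p = 0.126), with no overlap between the groups. The day 6 effect exceeded the day 3 effect by 0.79 ± 0.24, which was not past the threshold (adjusted p = 0.0955).

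Nqo1 encodes a reductase that takes quinones to hydroquinones in a single step. Its signals in DMSO were 10.07 and 9.75 at day 3 and 9.85 and 9.41 at day 6. In CSA they were 10.37 and 10.35 at day 3 and 10.25 on both arrays at day 6. All 4 CSA arrays stood above all 4 DMSO arrays, and at each day the CSA arrays lay closer to each other than the DMSO arrays did. The difference was 0.45 ± 0.15 at day 3 (adjusted p = 0.081) and 0.62 ± 0.15, or 1.54-fold, at day 6 (adjusted p = 0.0205). That call ended without DMSO replicate 2 of day 6, where the difference was 0.40 (adjusted p = 0.164), and without CSA replicate 1 (0.0787) or CSA replicate 2 (0.0875) of that day. The effects of the 2 days differed by 0.18 ± 0.21 (adjusted p = 0.706).

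Gclc and Gclm encode the catalytic and the modifier subunit of glutamate-cysteine ligase, the rate-limiting enzyme of glutathione synthesis, and they did not give the same result. Gclm signals were 10.93 and 10.90 in DMSO and 11.14 and 11.26 in CSA at day 3, and 10.11 and 10.10 in DMSO and 10.83 and 10.70 in CSA at day 6. The CSA arrays lay above the DMSO arrays of their own day, with a gap of larger size at day 6. The Gclm difference was 0.28 ± 0.09 at day 3 (adjusted p = 0.0632) and 0.66 ± 0.09, or 1.58-fold, at day 6 (adjusted p = 0.000807). The day 6 call held in each alternative run. A further probe set of Gclm gave 0.31 at day 3 (adjusted p = 0.213) and 0.63 at day 6 (adjusted p = 0.0163).

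Gclc signals were 9.66 and 9.65 in DMSO and 9.85 and 9.89 in CSA at day 3, and 9.38 and 9.39 in DMSO and 9.49 and 9.63 in CSA at day 6. The CSA arrays were higher at both days by a margin that did not pass the test. The difference was 0.21 at day 3 (adjusted p = 0.254, 95% interval -0.018 to 0.44) and 0.18 at day 6 (adjusted p = 0.35, 95% interval -0.054 to 0.40). A further probe set of Gclc gave 0.29 and 0.27 (adjusted p = 0.112 and 0.14). Whether the 2 subunits differ in their CSA effect was not tested.

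Gsr encodes glutathione reductase, which returns oxidized glutathione to its reduced form with NADPH. Its signals were 11.45 and 11.21 in DMSO and 11.14 on both CSA arrays at day 3, and 10.92 and 11.08 in DMSO and 10.82 and 11.06 in CSA at day 6. The CSA arrays lay just below the DMSO arrays at day 3 and overlapped them at day 6. The differences were -0.19 (adjusted p = 0.314, 95% interval -0.42 to 0.043) and -0.06 (adjusted p = 0.801, 95% interval -0.29 to 0.17). The day 6 interval holds values of either sign and does not reach the 0.66 of Gclm.

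The RefSeq promoter window of Gclm, from 250 bases before to 50 bases after the annotated start in GRCm38.p6, is shown in part because it holds letters of both response elements treated here. The antioxidant response element was searched as TGACNNNGC and the metal response element as TGCACNC or TGCGCNC, each on both strands. The stretch below is chr3:122245307-122245486 on the + strand. Its capitals mark an antioxidant match and a metal match, both on the reverse strand, which overlap by 3 bases.
Gclm: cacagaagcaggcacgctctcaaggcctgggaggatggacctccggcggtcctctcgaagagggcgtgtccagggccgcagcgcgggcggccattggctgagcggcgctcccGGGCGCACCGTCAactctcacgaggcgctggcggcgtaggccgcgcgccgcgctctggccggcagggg
Of 32851 promoter windows of the same length, 12.4% held at least 1 antioxidant match and 25.7% at least 1 metal match. The whole Gclm window held 3 metal matches, and 1.97% of windows held 3 or more. The windows of Srxn1 and Mt2 also held matches to both elements. A match is a description of the letters and not a site of binding. Windows were found for 7 of the 10 genes, all but Hmox1, Gclc and Gsr, and those of Nqo1 and Osgin1 held no match to either element.

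Txnrd1 and Srxn1 belong to the thioredoxin arm. Txnrd1 encodes the cytosolic thioredoxin reductase, a selenoprotein that keeps thioredoxin reduced. Srxn1 encodes sulfiredoxin, which repairs peroxiredoxins whose active cysteine has been over-oxidized. Srxn1 signals were 9.43 and 9.40 in DMSO and 9.98 and 10.06 in CSA at day 3, and 9.09 and 9.29 in DMSO and 10.10 and 10.09 in CSA at day 6. All 4 CSA arrays stood above all 4 DMSO arrays by at least the spread within any group. Srxn1 was higher by 0.60 ± 0.11 at day 3, or 1.52-fold (adjusted p = 0.00562), and by 0.90 ± 0.11 at day 6, or 1.87-fold (adjusted p = 0.000501). The day 3 call ended without CSA replicate 2 of that day (0.56, adjusted p = 0.0595), and the day 6 call held in each alternative run. A further Srxn1 probe set gave 0.65 (adjusted p = 0.0158) and 1.05 (adjusted p = 0.00109), and the remaining pair gave 0.46 to 0.66 at day 3 and 0.65 to 1.12 at day 6 without passing the threshold.

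Txnrd1 followed another course. Its signals were 12.13 and 12.00 in DMSO and 12.03 and 11.92 in CSA at day 3, where the groups overlapped. At day 6 they were 11.57 and 11.75 in DMSO and 11.93 and 12.20 in CSA, without overlap. The difference was -0.09 ± 0.10 at day 3 (adjusted p = 0.664) and 0.41 ± 0.10, or 1.33-fold, at day 6 (adjusted p = 0.0273). The day 6 call ended without DMSO replicate 1 (0.31, adjusted p = 0.193) or CSA replicate 2 (0.27, adjusted p = 0.185) of that day. The effects of the 2 days differed by 0.50 ± 0.14, not past the threshold (adjusted p = 0.0793), and by 0.63 without CSA replicate 1 of day 6 (adjusted p = 0.0357). Of its other probe sets one gave 0.50 at day 6 (adjusted p = 0.0531) and one 0.34 (adjusted p = 0.419).

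Both genes had 1 antioxidant match, on the reverse strand, and the 30 bases around each are shown with the match in capitals. The Srxn1 stretch, chr2:152105542-152105571, lies just after the annotated start. The Txnrd1 stretch, chr10:82859104-82859133, lies before the start of 1 of its 3 annotated windows, and the other windows held none. Both are printed on the + strand of GRCm38.p6 from RefSeq.
Srxn1: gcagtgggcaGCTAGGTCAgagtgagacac
Txnrd1: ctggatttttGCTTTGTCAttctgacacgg
The Srxn1 window also held 1 metal match. It further held 2 matches to the AP-1 letters TGACTCA, which 5.2% of windows hold at least once.

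Osgin1, an oxidative stress-induced growth inhibitor, went the other way in its values. They were 7.56 and 7.34 in DMSO and 7.41 and 6.32 in CSA at day 3, and 7.88 and 7.37 in DMSO and 6.45 and 6.90 in CSA at day 6. The groups overlapped at day 3, through a CSA array at the DMSO level, and did not overlap at day 6. The differences were -0.58 ± 0.36 (adjusted p = 0.387) and -0.95 ± 0.36 (adjusted p = 0.137, 95% interval -1.75 to -0.15). Its standard error was the largest of the 10 representatives.

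**Figure D2:**
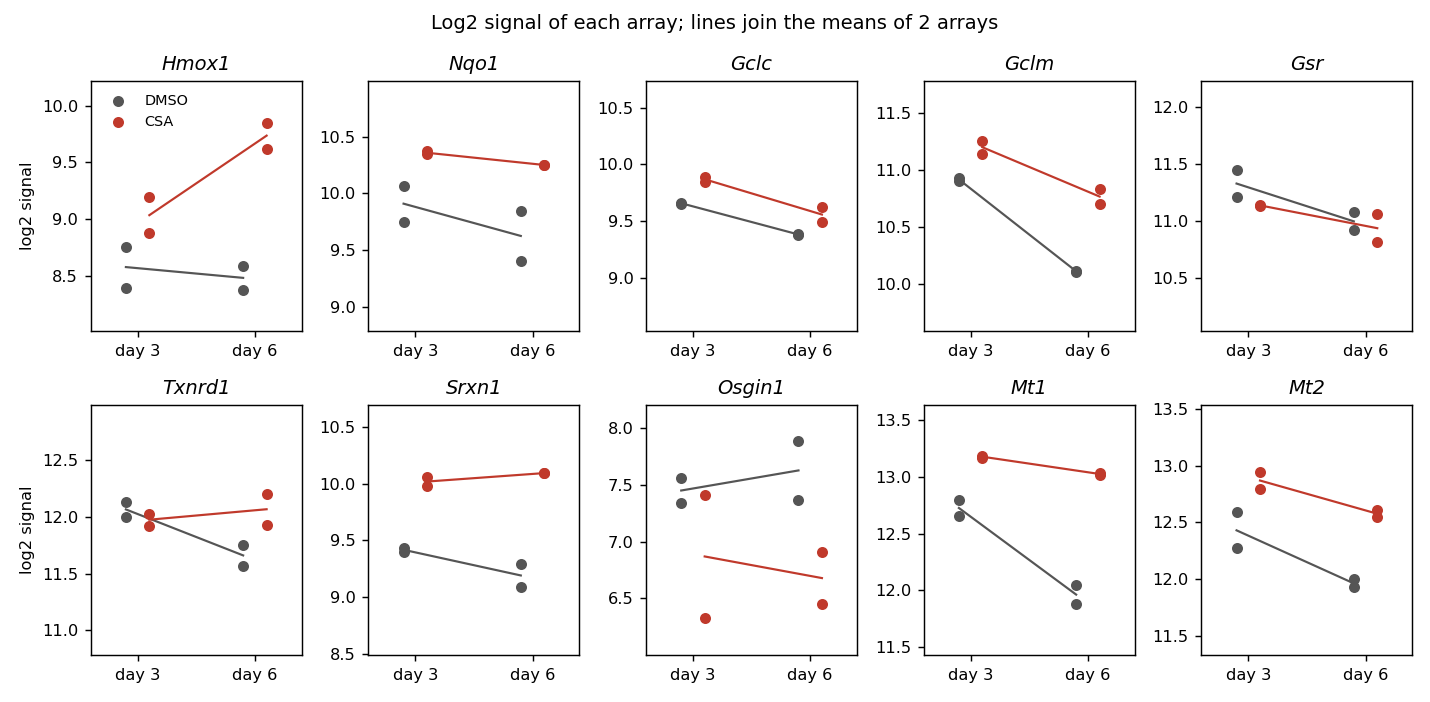
Log2 signal of every array for the 10 genes, with DMSO in grey and CSA in red at day 3 and day 6; lines join the means of the 2 arrays per group, and each panel has its own axis of equal span. The groups of Hmox1, Nqo1, Gclc, Gclm, Srxn1, Mt1 and Mt2 are apart at both days, those of Hmox1 further at day 6. The groups of Gsr, Txnrd1 and Osgin1 overlap at one of the days.

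The metallothioneins Mt1 and Mt2 were higher under CSA at both days. Mt1 signals were 12.65 and 12.79 in DMSO and 13.17 and 13.19 in CSA at day 3, and 11.88 and 12.05 in DMSO and 13.02 and 13.03 in CSA at day 6. The order of the group means ran from CSA at day 3 through CSA at day 6 and DMSO at day 3 to DMSO at day 6, and no groups overlapped. Mt1 was higher by 0.45 ± 0.07 at day 3, or 1.37-fold (adjusted p = 0.00325), and by 1.06 ± 0.07 at day 6, or 2.09-fold (adjusted p = 1.77e-05). Mt1 was the single gene of the 10 whose effects at the 2 days differed past the threshold, by 0.61 ± 0.10 (adjusted p = 0.00987), where this difference was past the threshold and above 0 for 2.36% of all genes and below 0 for 3.43%. At an unadjusted p under 0.05 limma took 4 of the 10 genes in that comparison, all with the higher effect at day 6. It took 5048 of the 27022 probe sets tested, in either direction. The Mt1 interaction ended without CSA replicate 1 of day 3 (0.60, adjusted p = 0.052).

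Mt1 rests on a probe set of the _s_at type, whose probes can read more than 1 transcript or gene, and its share of signal from a near-identical gene is uncertain. The other Mt1 probe set was dim, at 5.04 to 6.50 over the 8 arrays, and gave 0.21 ± 0.54 at both days (adjusted p = 0.877). With the mean of both probe sets the Mt1 difference was 0.33 at day 3 (adjusted p = 0.383), 0.63 at day 6 (adjusted p = 0.0891) and 0.30 for the interaction (adjusted p = 0.622). Without probe sets of the _s_at and _x_at types the dim one stood alone, and no Mt1 call held, with 0.21 at day 3 and at day 6 (adjusted p = 0.878) and -0.00044 for the interaction.

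Mt2 signals were 12.27 and 12.59 in DMSO and 12.80 and 12.94 in CSA at day 3, and 11.93 and 12.00 in DMSO and 12.55 and 12.61 in CSA at day 6. CSA arrays stood above DMSO arrays of the same day, and the CSA arrays of day 6 reached the level of the higher DMSO array of day 3. Mt2 was higher by 0.44 ± 0.10 at day 3, or 1.35-fold (adjusted p = 0.0148), and by 0.61 ± 0.10 at day 6, or 1.53-fold (adjusted p = 0.00226). At day 3 the call ended without DMSO replicate 1 (0.28, adjusted p = 0.0772) or CSA replicate 2 (0.37, adjusted p = 0.133) of that day. The effects of the 2 days differed by 0.17 ± 0.14 (adjusted p = 0.543).

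The promoter windows of both metallothionein genes lie on chromosome 8 and hold several metal matches, 4 for Mt2 and 3 for Mt1, the latter the same number as for Gclm. The Mt2 stretch is the whole 250 bases before its start, chr8:94172368-94172617, and holds 3 of its 4 metal matches and an antioxidant match that itself contains the AP-1 letters. The Mt1 stretches are chr8:94179060-94179079, before its start, and chr8:94179089-94179118, from its start on. All are RefSeq sequences of the + strand of GRCm38.p6, with the matches in capitals.
Mt2: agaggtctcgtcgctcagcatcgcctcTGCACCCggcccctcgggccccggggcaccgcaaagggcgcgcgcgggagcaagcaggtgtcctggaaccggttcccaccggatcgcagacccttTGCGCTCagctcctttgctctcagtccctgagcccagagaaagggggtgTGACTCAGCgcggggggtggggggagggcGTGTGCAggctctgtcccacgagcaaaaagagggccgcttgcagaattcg
Mt1, before the start: ccgctgTGCACACtggcgct
Mt1, from the start: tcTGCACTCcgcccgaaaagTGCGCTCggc

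The members' other probe sets are a second reading of the same RNA. Of the 9, 7 had a positive CSA difference at day 3 and all 9 at day 6, and 1 and 2 of them were past the threshold and higher. The sign thus differed from the representative's only for Gsr, at 0.05 and 0.16 (adjusted p = 0.816 and 0.393), neither of which passed.

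**Figure D3:**
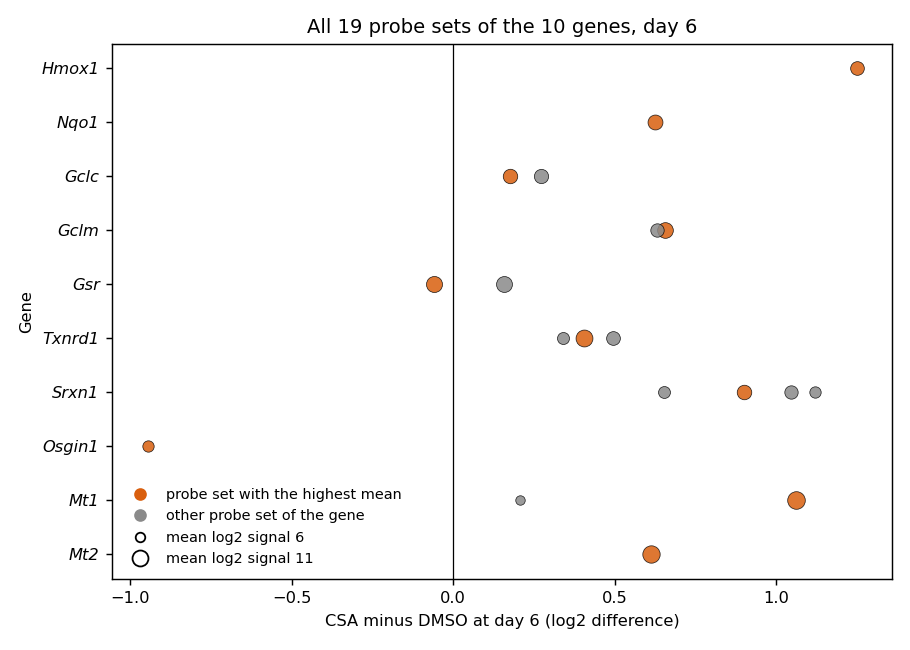
CSA minus DMSO at day 6 on the log2 scale for all 19 probe sets of the 10 genes; orange points are the probe set with the highest mean signal, grey points the others, and a larger point has a higher mean signal. The 4 Srxn1 probe sets lie between 0.65 and 1.12, while the dim Mt1 probe set at 0.21 lies far from the other Mt1 probe set at 1.06.

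From day 3 to day 6, 5 of the 10 genes fell in DMSO, and in CSA 3 fell and Hmox1 rose. These comparisons use the arrays of the CSA comparisons above and are not independent of them. In DMSO 0 of the 10 genes rose, and those that fell were Gclm, Gsr, Txnrd1, Mt1 and Mt2. Of all genes, 26.1% rose and 19.6% fell. At an unadjusted p under 0.05 limma took 6 of the 10 genes, beside 13053 of the 27022 probe sets tested. In CSA, Gclc, Gclm and Mt2 fell, beside 20.2% of all genes rising and 15.8% falling. The median over the 10 genes was -0.31 in DMSO and -0.17 in CSA, while that of all genes was 0.078 and 0.081. Quantile normalization moved the median over all probe sets from 0.098 to -0.033 in DMSO and from 0.12 to -0.028 in CSA, so differences between days are read against that shift.

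In DMSO the fall was 0.81 ± 0.09 for Gclm, to a signal 1.75-fold lower (adjusted p = 2.46e-05), and a further Gclm probe set fell by 0.72 (adjusted p = 0.0017). Mt1 fell by 0.76 ± 0.07, or 1.70-fold (adjusted p = 1.24e-05), and Mt2 by 0.47 ± 0.10, or 1.38-fold (adjusted p = 0.00233). Without DMSO replicate 2 of day 3 the fall of Mt2 was 0.31 on the log2 scale (-0.31, adjusted p = 0.0175), and its value was also -0.31 after quantile normalization (adjusted p = 0.0231). The Mt1 value of -0.59 from the dim probe set alone was not past the threshold (adjusted p = 0.425). In each of these 3 genes both DMSO arrays of day 6 lay below both of day 3.

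Txnrd1 in DMSO fell by 0.40 ± 0.10 (adjusted p = 0.00738), and its other probe sets fell by 0.93 (adjusted p = 0.000351) and 0.68 (adjusted p = 0.0332). The call of its representative ended without replicate 1 of DMSO at day 3 (-0.34, adjusted p = 0.0549) or at day 6 (-0.31, adjusted p = 0.0744), and the mean of its probe sets gave -0.67. Gsr fell by 0.33 ± 0.11 (adjusted p = 0.0265), a call that ended without replicate 1 of DMSO at day 3 (-0.22, adjusted p = 0.192) or at day 6 (-0.25, adjusted p = 0.172), and its other probe set fell by 0.41 (adjusted p = 0.00772). Nqo1, Gclc and Srxn1 had values of -0.28, -0.27 and -0.23 in DMSO that did not pass (adjusted p = 0.144, 0.0552 and 0.121). After quantile normalization all 3 passed, at -0.44 (adjusted p = 0.0365), -0.45 (adjusted p = 0.00608) and -0.42 (adjusted p = 0.011). The further Gclc probe set fell in DMSO past the threshold as deposited, by 0.40 (adjusted p = 0.00969). For the Gclc representative the changes between the days in CSA and in DMSO differed by -0.04 ± 0.15 (adjusted p = 0.93). The difference for Nqo1 also passed without DMSO replicate 1 of day 6 (adjusted p = 0.0234).

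In CSA the signal of Hmox1 rose by 0.70 ± 0.17 between the days, or 1.62-fold (adjusted p = 0.00947), beside -0.09 ± 0.17 in DMSO (adjusted p = 0.697). This rise was not past the threshold without CSA replicate 1 of day 3 (0.54, adjusted p = 0.0909) or CSA replicate 2 of day 6 (0.59, adjusted p = 0.0753). Gclm in CSA fell by 0.43 ± 0.09 (adjusted p = 0.00295). Gclc fell by 0.31 ± 0.10 (adjusted p = 0.0425) and Mt2 by 0.29 ± 0.10 (adjusted p = 0.0381), and both calls ended when any one of the 4 CSA arrays was left out, with adjusted p of 0.0522 to 0.193 for Gclc and 0.059 to 0.234 for Mt2. After quantile normalization the value of Mt2 was -0.11 (adjusted p = 0.432). Mt1, Txnrd1 and Gsr, which fell in DMSO, had values of -0.15, 0.09 and -0.20 in CSA (adjusted p = 0.144, 0.534 and 0.182). Of the members' 9 other probe sets, 2 were past the threshold and lower at day 6 in CSA. They were those of Gclc (-0.43, adjusted p = 0.0103) and Gsr (-0.30, adjusted p = 0.0425). Osgin1 did not pass in either treatment, at 0.18 ± 0.36 in DMSO and -0.19 ± 0.36 in CSA (adjusted p = 0.738 and 0.736).

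**Figure D4:**
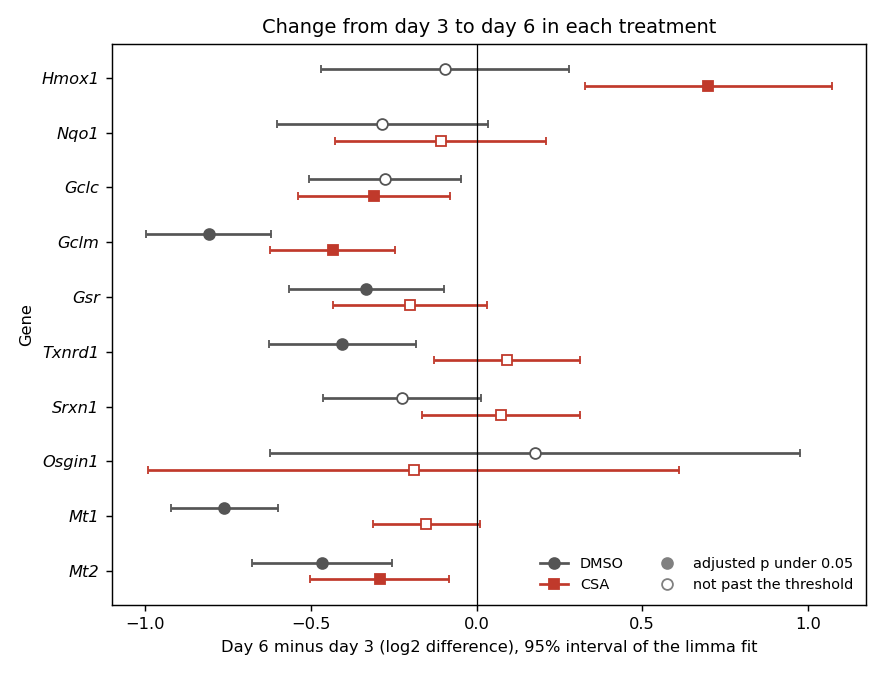
Day 6 minus day 3 on the log2 scale for the 10 genes in DMSO (grey circles) and CSA (red squares), with the 95% interval of the limma fit over 2 arrays per group; filled symbols have an adjusted p under 0.05. The 5 filled DMSO points lie left of 0, down to Gclm at -0.81, and Hmox1 in CSA at 0.70 is the filled point to the right.

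The regulators of these genes showed other patterns. Nfe2l2 itself had signals of 12.22 and 12.19 in DMSO and 12.30 and 12.21 in CSA at day 3, and 12.03 and 11.90 in DMSO and 12.08 and 11.93 in CSA at day 6. Its CSA differences were 0.05 and 0.04 (adjusted p = 0.774 and 0.815), and between the days it fell by 0.24 in DMSO (adjusted p = 0.0253) and by 0.25 in CSA (adjusted p = 0.0287). Keap1 differed by -0.01 ± 0.14 and -0.13 ± 0.14 (adjusted p = 0.973 and 0.638). An mRNA array does not read the amount of NRF2 protein. Of 13 genes for NRF2 and its regulators, all tested, 5 were higher and 0 lower at day 3 and 1 was higher and 0 lower at day 6, with medians of 0.22 and -0.04.

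Sqstm1, whose product p62 binds KEAP1, was higher by 0.73 ± 0.07 at day 3 (adjusted p = 0.000116) and by 0.73 ± 0.07 at day 6 (adjusted p = 8.5e-05), or 1.65-fold and 1.66-fold. The mean of its probe sets did not pass (0.37 and 0.44, adjusted p = 0.285 and 0.196). Nfe2l1, the NRF2 relative that also governs proteasome genes, was higher by 0.84 ± 0.10 at day 3 (adjusted p = 0.000618) and had a value of -0.16 at day 6 (adjusted p = 0.379). Bach1, the repressor of Hmox1, had signals of 10.84 and 10.64 in DMSO and 11.14 and 11.15 in CSA at day 3. At day 6 the order turned, with 11.48 and 11.36 in DMSO and 11.19 and 11.11 in CSA. Bach1 was thus higher by 0.41 ± 0.09 at day 3 (adjusted p = 0.0142) and differed by -0.27 ± 0.09 at day 6, which did not pass (adjusted p = 0.0846). Its day 3 call ended without DMSO replicate 2 (adjusted p = 0.0865), CSA replicate 1 (0.0832) or CSA replicate 2 (0.0939) of that day. The kinase gene Gsk3b was higher by 0.38 ± 0.08 at day 3 (adjusted p = 0.0153), a call that ended without DMSO replicate 2 (0.0786), CSA replicate 1 (0.071) or CSA replicate 2 (0.113) and with the mean of its probe sets (0.0538).

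Among 34 other glutathione genes, 29 tested, 4 were higher and 4 lower at day 3 and 8 higher and 3 lower at day 6, with medians of 0.05 and 0.09. Slc7a11, the light chain of the cystine-glutamate exchanger, had signals of 5.01 and 4.13 in DMSO and 7.33 and 7.16 in CSA at day 3, a difference of 2.67 ± 0.48 (adjusted p = 0.00563). Both DMSO values lay below the filter of 5.37, so the gene entered the test through the groups where it was high and the size of its difference is uncertain. A pseudocount of 32 took the difference to 1.70, and the call ended without CSA replicate 1 of that day (2.58, adjusted p = 0.0573). At day 6 it was 1.43 (adjusted p = 0.0913). Its heavy chain partner Slc3a2 was higher by 0.55 ± 0.08 at day 3 (adjusted p = 0.00151).

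Chac1, which degrades glutathione in the cytosol, was higher by 1.95 ± 0.17 at day 3 (adjusted p = 8.79e-05) and by 1.91 ± 0.17 at day 6 (adjusted p = 7.6e-05), so the gene list holds members that raise and members that lower glutathione. Mgst1, a membrane-bound glutathione transferase, was higher by 0.84 ± 0.08 and 1.04 ± 0.08 (adjusted p = 0.000125 and 2.33e-05), while the mean of its probe sets gave 0.61 and 0.53 (adjusted p = 0.574 and 0.63). At day 6 the glutaredoxin Glrx was higher by 0.71 ± 0.18 (adjusted p = 0.0277), a call that ended without any one of the 4 arrays of that day (adjusted p of 0.0743 to 0.147). Ggct, which acts on gamma-glutamyl dipeptides, was lower by 0.78 on the log2 scale at day 6 (-0.78 ± 0.10, adjusted p = 0.000834). It was also among the 4 lower genes of day 3 (-0.40 ± 0.10, adjusted p = 0.0324). The mean of its probe sets gave 0.15 at day 6 (adjusted p = 0.928). That mean takes in probe sets below the filter, with mean log2 signals of 5.28 and 3.61.

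Of 17 other thioredoxin, peroxiredoxin and superoxide genes, 13 tested, 1 was higher and 0 lower at day 3 and 0 higher and 1 lower at day 6, with medians of 0.07 and 0.06. Sesn2 was higher at day 3 by 0.44 ± 0.12 (adjusted p = 0.0347), and the call ended without any one of the 4 arrays of that day (adjusted p of 0.0574 to 0.181), after quantile normalization (0.0723) and with the mean of its probe sets (0.34, adjusted p = 0.259). Txnip, the inhibitor of thioredoxin, stood at 8.11 and 8.07 in DMSO and 8.22 and 8.16 in CSA at day 3, and at 10.99 on both DMSO arrays and 10.46 and 10.45 in CSA at day 6. Its difference was -0.54 ± 0.11 at day 6 (adjusted p = 0.00877). The call ended without DMSO replicate 1 (0.0674), DMSO replicate 2 (0.0726) or CSA replicate 2 (0.0536) of that day and with the mean of its probe sets (-0.32, adjusted p = 0.174). Of 9 genes for NADPH supply, 8 tested, 0 were higher at either day and 1 was lower at each, with medians of -0.11 and -0.04. Those were Taldo1 at day 3 (-0.30 ± 0.08, adjusted p = 0.0475), which did not pass without any one of the 4 arrays of that day (adjusted p of 0.095 to 0.198), and Idh2 at day 6 (-0.50 ± 0.08, adjusted p = 0.00226). The mean of the Idh2 probe sets gave -0.76 (adjusted p = 0.0536).

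Of 18 detoxification and efflux genes under NRF2, 14 tested, 2 were higher and 0 lower at day 3 and 4 higher and 1 lower at day 6, with medians of 0.01 and 0.17. The epoxide hydrolase Ephx1 was higher by 0.28 ± 0.06 (adjusted p = 0.0141) and 0.61 ± 0.06 (adjusted p = 0.000155), and its day 3 call ended without DMSO replicate 1 (0.0698), CSA replicate 1 (0.114) or CSA replicate 2 (0.0685). Ugdh, which makes UDP-glucuronate, was higher at day 6 by 0.56 ± 0.08 (adjusted p = 0.00133), and the reductase Ptgr1 by 0.49 ± 0.10 (adjusted p = 0.0104), which did not pass without DMSO replicate 2 (0.0983) or CSA replicate 1 (0.0556). Abcc1, an exporter of glutathione conjugates, was higher by 0.39 ± 0.07 at day 3 (adjusted p = 0.00771) and lower at day 6 (-0.34 ± 0.07, adjusted p = 0.0154). The Abcc1 calls ended without CSA replicate 2 at day 3 (0.0924) and without DMSO replicate 1 (0.104), DMSO replicate 2 (0.0706) or CSA replicate 2 (0.0865) at day 6, and the mean of its probe sets gave 0.26 at day 3 (adjusted p = 0.079).

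Around heme oxygenase, 20 genes of heme and iron handling were listed, of which 16 were tested. At day 3, 1 was higher and 1 lower, and at day 6, 3 were higher and 1 lower, with medians of -0.06 and 0.02. Slc48a1, which carries heme out of the lysosome, had signals of 9.79 and 9.81 in DMSO and 10.89 and 10.88 in CSA at day 6, a difference of 1.09 ± 0.10 (adjusted p = 8.63e-05). At day 3 it stood at 10.00 and 9.98 in DMSO and 10.46 and 10.21 in CSA (0.34, adjusted p = 0.0532). Fth1, the heavy chain of the iron store ferritin, had signals of 13.26 and 13.22 in DMSO and 13.68 and 13.80 in CSA at day 6, higher by 0.51 ± 0.06 (adjusted p = 0.000555), beside 0.02 at day 3 (adjusted p = 0.91). Blvrb, one of the biliverdin reductases, was higher by 0.91 ± 0.19 at day 3 (adjusted p = 0.013) and by 0.77 ± 0.19 at day 6 (adjusted p = 0.0289). Its calls ended without DMSO replicate 1 (0.0738) or CSA replicate 1 (0.106) at day 3, and without DMSO replicate 2 (0.211), CSA replicate 1 (0.0746) or CSA replicate 2 (0.154) at day 6. Blvra, which encodes the main biliverdin reductase, was lower at day 3 (-0.66 ± 0.13, adjusted p = 0.00958), a call that ended without CSA replicate 1 (-0.52, adjusted p = 0.0969). Ireb2, an iron-sensing repressor of ferritin translation, was lower at day 6 (-0.39 ± 0.09, adjusted p = 0.0182), a call that ended without DMSO replicate 1 (0.0796), DMSO replicate 2 (0.114) or CSA replicate 2 (0.123).

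Around the metallothioneins, 28 genes of zinc and copper handling were listed, of which 25 were tested. At day 3, 5 were higher and 1 lower, and at day 6, 3 were higher and 2 lower, with medians of 0.16 and 0.18. Mtf1, which encodes the zinc-sensing activator of the metallothionein genes, had signals of 8.94 and 8.68 in DMSO and 8.15 and 8.32 in CSA at day 3. It was thus lower (-0.57 ± 0.16, adjusted p = 0.0448), but this did not pass after quantile normalization (0.0543) or without DMSO replicate 1 (0.206), DMSO replicate 2 (0.0527), CSA replicate 1 (0.223) or CSA replicate 2 (0.104) of that day. At day 6 its difference was -0.13 (adjusted p = 0.704). Slc30a1, a zinc exporter and another target of MTF1, had signals of 9.29 and 9.50 in DMSO and 10.23 and 10.11 in CSA at day 3, higher by 0.77 ± 0.11 (adjusted p = 0.00121). At day 6 it stood at 10.02 and 9.94 in DMSO and 10.22 and 10.19 in CSA, a difference of 0.23 that did not pass (adjusted p = 0.224). The mean of its probe sets gave 0.29 at day 3 (adjusted p = 0.332).

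The copper carrier Slc31a2 was higher at day 3 by 0.90 ± 0.16 (adjusted p = 0.00443, or 0.051 without CSA replicate 1). The importer Slc39a8 was higher at day 3 by 0.45 ± 0.10 (adjusted p = 0.0174), a call that ended without DMSO replicate 1 (0.0562), DMSO replicate 2 (0.0699) or CSA replicate 1 (0.29, adjusted p = 0.151). At day 6 the transporters Slc30a4 (0.68 ± 0.16, adjusted p = 0.0206), Slc30a7 (0.51 ± 0.12, adjusted p = 0.0191) and Slc39a6 (0.40 ± 0.08, adjusted p = 0.00935) were higher and Slc39a10 was lower (-0.36 ± 0.08, adjusted p = 0.0146). Each of these 4 calls ended without one of at least 2 arrays of that day. For Slc30a4 these were DMSO replicate 1 (0.0775), DMSO replicate 2 (0.123) and CSA replicate 2 (0.156). For Slc30a7 they were DMSO replicate 2 (0.142), CSA replicate 1 (0.0528) and CSA replicate 2 (0.101), and the mean of its probe sets gave 0.32 (adjusted p = 0.13). For Slc39a6 they were DMSO replicate 2 (0.0773) and CSA replicate 1 (0.0614), and the mean of its probe sets gave 1.45. For Slc39a10 they were DMSO replicate 1 (0.051), DMSO replicate 2 (0.12) and CSA replicate 1 (0.0787).

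**Figure D5:**
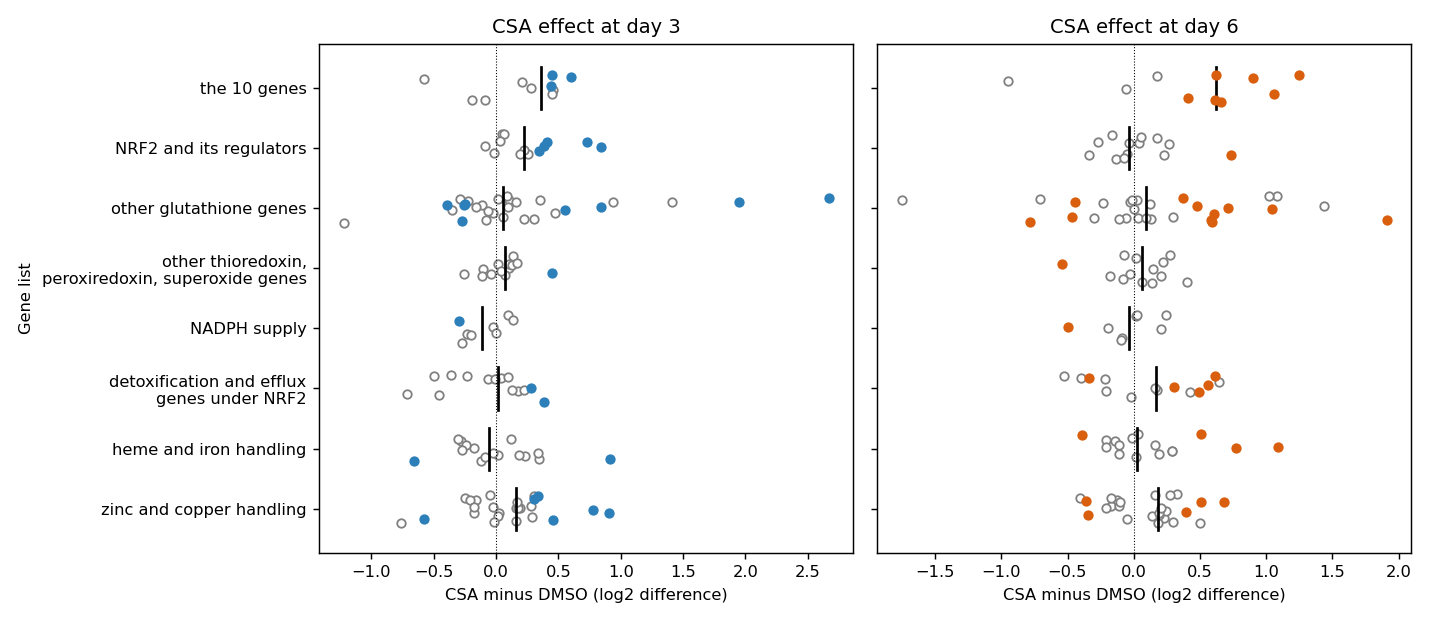
CSA minus DMSO on the log2 scale at day 3 (left) and day 6 (right) for every tested gene of the 10 and of 7 lists of related genes; filled points have an adjusted p under 0.05 and the black bar is the median of a list. The bar of the 10 genes stands at 0.36 and 0.62, and those of the other lists lie between -0.11 and 0.22.

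Of the 20 calls among the 10 genes over all comparisons, 6 held in each alternative run and 7 when the fit without the intensity trend was set aside, so 13 ended under some other setting. Without the intensity trend in limma's prior variance, 0 of the 10 genes passed at day 3 (Srxn1 0.0593, Mt1 0.0991 and Mt2 0.163). There 4 of the 10 had an unadjusted p under 0.05, beside 5425 of the 27022 probe sets tested. At day 6, 4 of the 10 passed in that fit, and the calls of Nqo1 (0.143), Txnrd1 (0.185) and Mt2 (0.0848) ended. Of the genes named from the other lists, 13 of 18 calls at day 3 and 11 of 19 at day 6 ended in that fit, with adjusted p of 0.0519 (Nfe2l1) to 0.229 (Taldo1) and of 0.0552 (Ugdh) to 0.156 (Slc30a4).

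The genes whose profile over the 8 arrays was most like that of 3 of the members were found by the root mean square difference of log2 values, each gene centred on its own mean. For Hmox1, whose own root mean square around its mean was 0.51, they were Pmp22 at 0.16, Fbln5 at 0.18 and Tagln at 0.19. For Nqo1, at 0.32, they were Srd5a3 at 0.086, Adal at 0.088 and Saraf at 0.096. For Mt1, at 0.47, they were Kcnk1 at 0.10, Zfand2a at 0.11 and Dll1 at 0.13. These are the nearest of 12529 genes over arrays that share treatments and days, and closeness of this kind is a description.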

How the data were processed

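RNA of 8 samples was amplified with the 3' IVT Express kit and hybridised to Affymetrix arrays, per the labels' protocols. The authors deposited log2 signals of 45037 probe sets. Per the submitters' processing notes they were made with MAS5; its version, scaling target and handling of low signals were not given in the sources used here. On every array the trimmed mean of the anti-logged values was 496.8 to 497.5, and 110 to 259 values per array were exactly 0. The values were used as deposited, with no pseudocount. Dim probe sets have compressed or inflated differences, and the number of arrays limits the precision.

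A filter removed probe sets whose mean log2 signal lay below its 40th percentile, 5.37, and kept 27022. For 34945 probe sets the platform annotation names 1 symbol. All 8 arrays entered a single limma 3.58.1 fit (R 4.3.3) of the 4 group means, with 4 residual degrees of freedom and variances moderated along an intensity trend. Two-sided p-values were adjusted by Benjamini-Hochberg over these 27022, and the threshold was 0.05. The pipeline was tested on simulated data, where unchanged probe sets were rarely called. Fewer of the large simulated falls were called than the criterion first set asked, and after this was seen it was replaced by criteria on calibration, bias, false calls and changes that are large against the noise. Simulated rises and falls were of equal size, and the test was two-sided. A change of either direction in a noisy probe set can thus be missed. This bears on all counts of genes past the threshold, those of 0 lower genes among them, and on Osgin1. Intervals are 95% intervals of that fit.

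The members, the gene lists and the tests were chosen with earlier results of these data known. Named genes are the members, up to 4 of each list with the largest CSA difference past the threshold at each day, and Nfe2l2, Keap1, Bach1, Mtf1 and Slc30a1. Marker genes were named after their values were seen. Lists are described by counts and medians. The alternatives were other filters, quantile normalization, no trend, pseudocounts of 8 and 32, a floor of 5 for log2 signals, probe sets averaged within genes, no _x_at or _s_at probe sets, the replicate number as a block, the 4 arrays of a comparison alone, and each array left out in turn. Promoter windows are those of RefSeq in GRCm38.p6, matched by symbol. Detection calls, scan dates and array batches were not used here.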

Additional observations from a re-analysis of the deposited data

Results flagged for a closer look

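For 9 of the named genes the CSA difference at day 6 differed from that at day 3 past the threshold of limma's interaction test. Over all genes this difference was past the threshold and above 0 for 2.36% and below 0 for 3.43%. Most of the named genes were chosen for a large CSA difference at a day, on these same arrays. Such a choice favours a difference between the days, so no conclusion is drawn from the count. The value given is the day 6 difference minus the day 3 difference on the log2 scale. It was above 0 for Mt1 at 0.61 (adjusted p = 0.00987), Slc48a1 at 0.74 (adjusted p = 0.0161) and Fth1 at 0.49 (adjusted p = 0.0122). It was below 0 for Nfe2l1 at -1.01 (adjusted p = 0.00425), Abcc1 at -0.72 (adjusted p = 0.00422), Bach1 at -0.68 (adjusted p = 0.0139), Txnip at -0.64 (adjusted p = 0.0372), Ireb2 at -0.51 (adjusted p = 0.0459) and Idh2 at -0.50 (adjusted p = 0.0314).

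The calls of Nfe2l1 and Abcc1 held when any one array was left out. That of Mt1 ended without CSA replicate 1 of day 3 (0.052), and that of Fth1 without the same array (0.0715) or DMSO replicate 2 of day 6 (0.0594). Bach1 ended without CSA replicate 1 (0.0632) or 2 (0.0633) of day 3 or DMSO replicate 1 of day 6 (0.0646). Slc48a1 ended without CSA replicate 2 of day 3 (0.0715), or without DMSO replicate 1 (0.0588), DMSO replicate 2 (0.0585) or CSA replicate 2 (0.05) of day 6. Txnip ended without any array but DMSO replicate 1 of day 3 (adjusted p of 0.0653 to 0.133), Idh2 without any but DMSO replicate 2 of day 3 and CSA replicate 2 of day 6 (0.0723 to 0.125), and Ireb2 without any but DMSO replicate 1 of day 3 and CSA replicate 1 of day 6 (0.111 to 0.145). All 9 calls ended without the trend in the prior variance. The causes were not tested.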

How the results depend on the processing

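Of 20 calls among the 10 genes over the 5 comparisons, 6 held in each alternative run, and of 45 calls among the other named genes 4 did. Over the members' 775 values under 19 alternatives, 699 kept direction and side of the threshold, 47 lost the call, 11 gained one and 18 changed sign. The labels do not say whether the repeat numbers, 2 per group, pair the samples. Deviations of same-numbered arrays correlated at -0.0034 to 0.034 over all tested probe sets. Many of these are dim, so a shared culture or day could be missed. With the replicate block the probe sets past the threshold numbered 2724 (CSA at day 3), 2742 (CSA at day 6), 1208 (interaction), 11131 (days in DMSO) and 8516 (days in CSA). Without it they numbered 2588, 2612, 1144, 10970 and 8358. With probe sets averaged within genes, which tests fewer features, they were 1093, 1101, 510, 4289 and 3203. Without the trend they were 442 and 694 for CSA and 0 for the interaction, where limma took 4287 at an unadjusted p under 0.05. Leaving out 1 array gave 1076 to 2008 and 1112 to 1717 for CSA, 390 to 994 for the interaction and 5417 to 6068 for the days in CSA. The members higher at day 3 numbered 0 without the trend, 1 with the mean of probe sets and 1 to 3 with 1 array left out, and at day 6 they numbered 4 without the trend.

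Signs changed for values that had not passed, except for Ggct at day 6 and the Mt1 interaction. With 1 array left out Gsr at day 6 ran from -0.18 to 0.060, Keap1 at day 3 from -0.23 to 0.20, Nfe2l2 at day 6 from -0.033 to 0.11, the interactions of Gclc from -0.10 to 0.035, Osgin1 from -0.91 to 0.18 and Nqo1 from -0.044 to 0.40, the days in DMSO of Osgin1 from -0.079 to 0.43 and Hmox1 from -0.28 to 0.085, and the days in CSA of Txnrd1 from -0.044 to 0.23 and Osgin1 from -0.73 to 0.35. With the mean of probe sets Gsr at day 6 was 0.049, Keap1 0.018 and Ggct 0.15, and in the days in CSA Txnrd1 and Srxn1 were each -0.12. The mean for Ggct takes in probe sets below the filter. Quantile normalization gave 0.054 for the Gclc interaction, -0.14 for Osgin1 between the days in DMSO and 0.025 for Mt1 in CSA, and without _x_at and _s_at probe sets the Mt1 interaction was -0.00044. The causes were not tested.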
